A study of Mus musculus with 16 samples.

Results

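The nuclear genes of the mitochondrial respiratory chain were examined for histone marks at their promoters in hematopoietic stem cells (HSCs) of young and aged mice. Members were all protein-coding nuclear genes of the GENCODE M21 annotation (mouse build mm10) whose symbols start with Nduf, Uqcr, Cox4, Cox5, Cox6, Cox7, Cox8 or Atp5, together with Sdha, Sdhb, Sdhc and Sdhd. This rule, which used names and no measured value, found 94 of 21851 genes, with 164 of 41438 start sites. The 94 records carry 93 symbols, because Atp5o is annotated as a pair of gene records on chromosome 16, and both are counted. Histone marks had been mapped by chromatin immunoprecipitation and sequencing (ChIP-seq) in HSCs sorted from the bone marrow of C57BL/6 mice, at 10 weeks of age for the young group and at 20 months for the aged group. The sorted cells were lineage-negative and positive for Sca-1, c-kit and CD150, and they lacked CD34, CD48, Flt3 and IL-7 by their labels. For each of the marks H3K4me3, H3K27me3 and H2AK119ub1 there were 2 libraries per age, with 2 input libraries per age. The peaks came as 1 pooled list per mark and age, so there is no spread between replicates, and no difference between the ages could be tested.

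The respiratory chain passes electrons from NADH through complex I (NADH dehydrogenase, the Nduf genes) and from succinate through complex II (the Sdh genes) to complex III (the Uqcr genes) and on to oxygen at complex IV (cytochrome c oxidase, the Cox genes). The proton gradient built on the way drives complex V, the ATP synthase of the Atp5 genes. HSCs at rest are known to rely on it less than their dividing progeny. H3K4me3 marks the nucleosomes that flank start sites of active genes, whereas H3K27me3 and H2AK119ub1 are left by the Polycomb repressive complexes at silent or poised genes. A gene was counted as carrying a mark when a listed peak overlapped the 1 kb on either side of any of its start sites by at least 1 bp.

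Several subunits exist as a widely expressed form and a form restricted to certain tissues, and H3K4me3 is known to gather at promoters rich in CpG. The bases just before the 5′-most start site of 4 such pairs follow, each 5′ to 3′ on the strand of its gene, with every CpG in capitals. The bases were read from the mm10 genome and trimmed where an annotated exon of another gene begins. They are Ndufa4l2 (chr10:127514817-127514966, plus strand), the counterpart of Ndufa4 that hypoxia induces, Ndufa4 itself (chr6:11907498-11907647, minus), Cox6a2 of heart and skeletal muscle (chr7:128206388-128206537, minus), Cox6a1 (chr5:115348982-115349129, minus), Cox7a1 of heart and skeletal muscle (chr7:30183994-30184143, plus), Cox7a2 (chr9:79759879-79760028, minus), Cox8b of heart and skeletal muscle (chr7:140900447-140900596, minus) and Cox8a (chr19:7217617-7217766, minus).
Ndufa4l2: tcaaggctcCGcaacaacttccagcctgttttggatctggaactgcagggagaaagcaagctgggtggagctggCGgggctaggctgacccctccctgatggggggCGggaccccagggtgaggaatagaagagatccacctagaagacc
Ndufa4: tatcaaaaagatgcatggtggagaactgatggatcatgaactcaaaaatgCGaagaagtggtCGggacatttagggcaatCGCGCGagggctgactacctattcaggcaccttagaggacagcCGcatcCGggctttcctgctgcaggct
Cox6a2: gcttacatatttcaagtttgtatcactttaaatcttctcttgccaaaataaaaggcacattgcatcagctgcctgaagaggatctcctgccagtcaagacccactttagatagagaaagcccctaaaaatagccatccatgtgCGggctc
Cox6a1: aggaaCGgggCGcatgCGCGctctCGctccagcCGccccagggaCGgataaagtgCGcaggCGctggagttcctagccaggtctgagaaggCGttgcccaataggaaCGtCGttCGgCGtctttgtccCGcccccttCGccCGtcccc
Cox7a1: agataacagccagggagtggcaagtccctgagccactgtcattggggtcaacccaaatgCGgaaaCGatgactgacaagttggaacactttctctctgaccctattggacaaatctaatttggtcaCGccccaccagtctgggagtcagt
Cox7a2: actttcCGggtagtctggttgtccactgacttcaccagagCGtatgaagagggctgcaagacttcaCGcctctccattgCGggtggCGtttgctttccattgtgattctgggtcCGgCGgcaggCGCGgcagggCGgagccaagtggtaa
Cox8b: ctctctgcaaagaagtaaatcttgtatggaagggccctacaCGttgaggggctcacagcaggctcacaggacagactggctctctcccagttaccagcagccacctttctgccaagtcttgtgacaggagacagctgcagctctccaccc
Cox8a: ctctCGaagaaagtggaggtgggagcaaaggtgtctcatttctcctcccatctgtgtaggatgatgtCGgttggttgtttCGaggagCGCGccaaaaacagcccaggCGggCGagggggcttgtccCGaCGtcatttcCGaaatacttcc
The restricted isoform had fewer CpGs in each pair. There were 3 in Ndufa4l2 against 7 in Ndufa4, 1 in Cox6a2 against 17 in Cox6a1, 3 in Cox7a1 against 10 in Cox7a2 and 1 in Cox8b against 10 in Cox8a.

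Sequence motifs of factors known to regulate respiratory genes were searched from 250 bases before to 50 bases after the 5′-most start, on both strands. The sequences below belong to members with the highest H3K4me3 enrichment of their complex at one of the ages, shown where a motif fell within the printed bases before the start, with the motif in capitals. They are Ndufb6 (chr4:40279422-40279571, minus), with a GC box (GGGCGG, read by SP1 and related factors) 39 to 34 bases before the start, and Sdhd (chr9:50603813-50603909, minus), with an ETS motif (CCGGAAG, the family of GABPA) at 83 to 77 bases and a GC box at 40 to 35 bases. Sdha (chr13:74350281-74350308, minus) had a motif of the factor NRF1 (GCGCANGCG) 15 to 7 bases before its start, and Atp5b (chr10:128083123-128083272, plus) had a GC box at 11 to 6 bases. The sequences of Sdhd and Sdha end early because exons of Timm8b and Ccdc127 lie upstream.
Ndufb6: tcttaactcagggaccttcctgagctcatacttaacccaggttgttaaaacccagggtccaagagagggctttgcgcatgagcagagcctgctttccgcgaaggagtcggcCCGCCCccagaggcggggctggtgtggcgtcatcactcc
Sdhd: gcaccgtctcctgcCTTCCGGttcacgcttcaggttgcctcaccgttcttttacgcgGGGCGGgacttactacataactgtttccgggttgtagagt
Sdha: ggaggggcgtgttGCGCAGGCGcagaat
Atp5b: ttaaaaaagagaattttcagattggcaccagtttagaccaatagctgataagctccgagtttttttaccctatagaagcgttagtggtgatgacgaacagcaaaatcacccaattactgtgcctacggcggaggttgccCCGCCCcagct
The NRF1 motif was found in 20.2% of member promoters and in 8.63% of all promoters, and the YY1 motif AAGATGGC in 9.57% and 2.96%. The ETS motif was found in 18.1% of member promoters against 11.1% of all, and the CRE motif TGACGTCA in 5.32% against 2.5%. Among CpG-rich promoters alone (defined below), the shares were 21.4% and 15.7% for NRF1 and 10.0% and 4.72% for YY1, whereas ETS was at 18.6% and 18.8%. GC boxes were present in 44.7% of member promoters and 44.9% of all promoters, and in 48.6% and 72.8% of the CpG-rich ones. The letters TATAAA occurred in 10.6% of member promoters and 12.5% of all. A match describes the letters in this window and does not show binding.

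H3K4me3 was listed at most respiratory chain promoters in young HSCs and at about as many as not in aged HSCs. In the young list 67 of the 94 genes carried it (71.3%, Wilson 95% interval 61.4 to 79.4), against 33.8% of all protein-coding genes. In the aged list 45 genes carried it (47.9%, 38.1 to 57.9), against 23.3% of all genes. These intervals cover counting error over genes only, and neighbouring or co-regulated genes are not independent. Both lists held 38 of the members (40.4%, 31.1 to 50.5), against 17.5% of all genes. Of the rest, 29 were marked in the young list only (16.3% of all genes were), 7 in the aged list only (5.78% of all genes) and 20 in neither list (60.4% of all genes).

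The ratio of aged to young marked genes was 0.672 in the respiratory chain and 0.689 over all genes. Of the 67 members marked in young HSCs, 56.7% (44.8 to 67.9) were also marked in aged HSCs, a share that lies close to the 51.8% over all genes. Of the 45 members marked in aged HSCs, 84.4% (71.2 to 92.3) were marked in young HSCs as well, compared with 75.2% over all genes. The young list is the longer one, with 11371 peaks against 6723 aged peaks. When the young list was cut to its 6723 peaks with the highest −log10 q-values, 45 members were marked (47.9%, against 23.4% of all genes), exactly as many as in the aged list. Then 27 were marked at both ages, 18 in the young list only and 18 in the aged list only. The same cut brought the counts over all genes together, at 5112 young against 5089 aged. The equal counts thus follow from the shorter young list and say nothing particular about the respiratory chain. A lower count in aged HSCs was present in the full lists. It was also present at a minimum −log10 q-value of 4, with 47 young against 32 aged members (5415 against 3436 over all genes). It was absent when the lists had equal length.

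**Figure D1:**
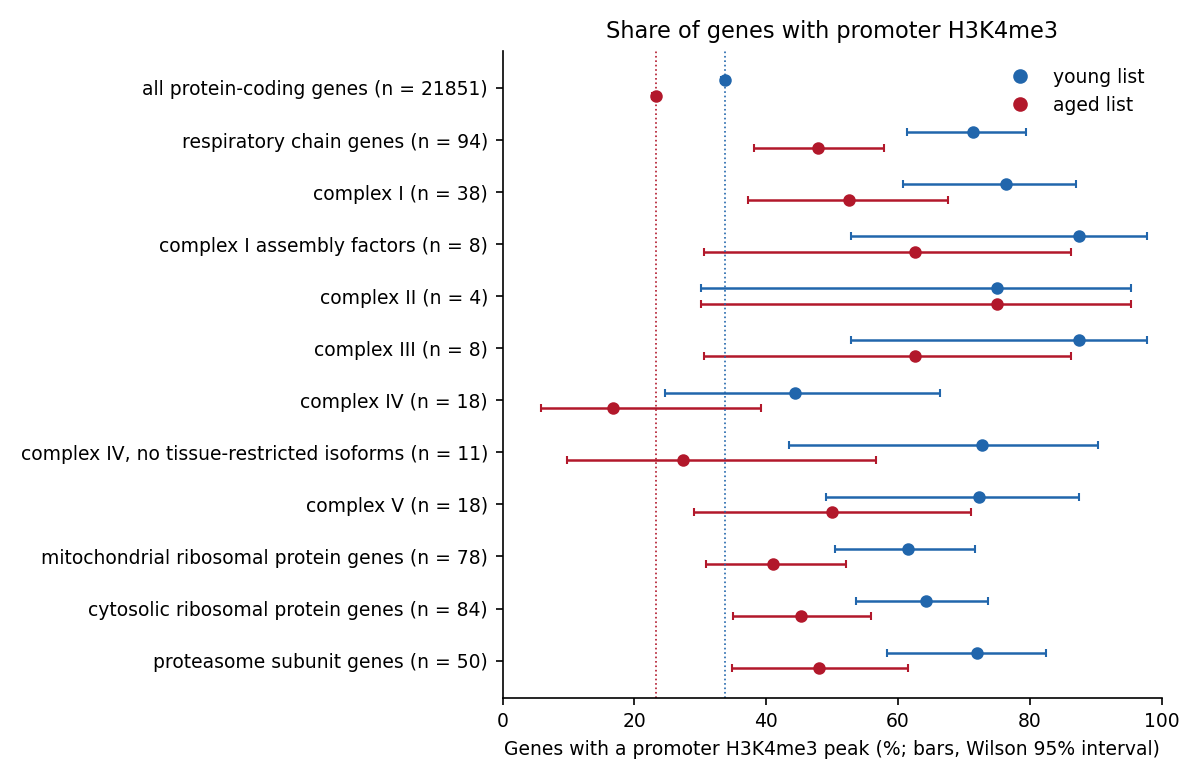
Percentage of genes with a promoter H3K4me3 peak (horizontal axis) in the young list (blue) and the aged list (red), for all genes, the respiratory chain, each complex and 3 other sets of housekeeping genes. Bars are Wilson 95% intervals over genes and dotted lines mark the shares over all genes, and most sets sit to the right of the line of their age except complex IV in the aged list, at 16.7%.

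Other sets of genes that every cell uses had shares like those of the respiratory chain. Mitochondrial ribosomal protein genes, which make the machinery that translates the mitochondrial genome, were marked at 61.5% of 78 in the young list and 41.0% in the aged list. Cytosolic ribosomal protein genes were marked at 64.3% and 45.2% of 84, and proteasome subunit genes at 72.0% and 48.0% of 50. The intervals of all 3 sets overlapped those of the respiratory chain at both ages, as the plot of shares by complex shows. No difference between these sets and the respiratory chain was shown.

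Genes were assigned to complexes by the start of their symbols, and not by where each protein sits. Complex I, the entry point of electrons from NADH, had 38 members by this rule, with Ndufa4 and Ndufa4l2 included. Of the 38 members of complex I, 29 (76.3%) were marked in young HSCs and 20 (52.6%) in aged HSCs. Its 7 nuclear-encoded core subunits, among them those that bind the flavin and the iron-sulfur clusters, were all marked in young HSCs, and 4 of them were also marked in aged HSCs. Ndufs1 was among those marked at both ages. Its young peak was weak, at 2.59-fold with a −log10 q-value of 1.56 and a summit 700 bp upstream. The start of Eef1b2 is within 1 kb of a start of Ndufs1, so this peak may belong to either promoter. Ndufv1, which binds the flavin, was marked in young HSCs only. The strongest young promoter peak of the complex was that of Ndufa12, an accessory subunit, at 6.25-fold over background with a −log10 q-value of 11.0 and the nearest aged peak 50566 bp from a start site. This peak (chr10:94198500-94198934) had its summit 191 bp upstream of the nearest start, and another peak of 5.53-fold lay in coding sequence downstream. The strongest aged peak was that of Ndufb6, an accessory subunit of the membrane arm, at 5.53-fold (chr4:40279062-40279365, over the 5′ end of the gene) with the nearest young peak 9609 bp away. Each of these promoters was thus the strongest of its complex at one age and unlisted at the other.

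The aged-only members of complex I were, beside Ndufb6, the accessory subunits Ndufb8 at 4.42-fold, Ndufa7 at 4.20-fold and Ndufc1 at 3.34-fold. Their nearest young peaks lay 7439, 18580 and 66677 bp away. Ndufc1 was the weakest of them, with a −log10 q-value of 2.37. The assembly factors of complex I, the Ndufaf genes, build the complex without remaining in it. They were marked in 7 of 8 cases in young HSCs and in 5 of 8 in aged HSCs, with Ndufaf4 and Ndufaf6 in the young list only and Ndufaf8 in neither. The young enrichment of Ndufaf4 and of Ndufaf5 was 5.74-fold each, and the highest aged value was 4.78-fold at Ndufaf5.

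Complex II, succinate dehydrogenase, is the part of the chain that also belongs to the citric acid cycle, and none of its subunits is encoded in mitochondrial DNA. All 4 genes were marked at one age or both. Sdha, the flavoprotein subunit that oxidizes succinate, had its nearest young peak 32348 bp from the start. In aged HSCs it carried a peak of 6.41-fold (chr13:74350331-74350748, −log10 q-value 9.91), the highest aged enrichment of any member. The summit lay 217 bp upstream of the start, over the 5′ end of the divergent gene Ccdc127, so the peak may belong to either promoter. A smaller peak of 3.65-fold lay 503 bp downstream, in an intron of Sdha. Sdhb, the iron-sulfur subunit, showed the opposite order, with 4.68-fold in young HSCs and the nearest aged peak at 26149 bp. The membrane anchors Sdhc and Sdhd were marked at both ages, at 4.44-fold and 5.08-fold for Sdhc and at 5.10-fold and 3.48-fold for Sdhd, in young and aged HSCs respectively.

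In complex III, which passes electrons to cytochrome c, 7 of 8 genes were marked in young HSCs and 5 of 8 in aged HSCs. The core proteins Uqcrc1 and Uqcrc2 were marked at both ages, at 4.23-fold and 4.61-fold in young and 4.64-fold each in aged HSCs, the highest aged value of the complex. Uqcrb, a ubiquinone-binding subunit, had the highest young value of the complex, 5.44-fold, against 3.68-fold in aged HSCs. Uqcrfs1, the Rieske iron-sulfur protein, and Uqcr10 were marked in young HSCs only, and Uqcrq in neither list. The electron carrier cytochrome c and the cytochrome c1 subunit lie outside the naming rule. Of their 3 genes, Cycs was marked in young HSCs at 4.23-fold, whereas Cyct, the testis form, and Cyc1 were in neither list.

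Complex IV had the lowest shares of the chain, 8 of 18 genes (44.4%, 24.6 to 66.3) in young HSCs and 3 of 18 (16.7%, 5.84 to 39.2) in aged HSCs. Of its 18 genes 7 are isoforms restricted to certain tissues, and none of these carried H3K4me3. Without them, 8 of 11 genes (72.7%, 43.4 to 90.3) were marked in young and 3 of 11 (27.3%, 9.75 to 56.6) in aged HSCs. The aged interval overlapped that of the whole chain, so a difference from the chain as a whole was not detectable at this number of genes. Cox6b1, which lies between the monomers of the cytochrome c oxidase dimer, had a young peak of 6.38-fold (chr7:30625712-30626144, over the first exon), the highest young enrichment of any member. The nearest aged peak lay 23726 bp away. The genes in the aged list were Cox7a2 at 4.86-fold, Cox5a at 3.76-fold and Cox6c at 3.48-fold, and their young values were 3.70-fold for Cox7a2 and 4.25-fold for Cox6c. Cox5a, a matrix-side subunit, had its nearest young peak at 15806 bp.

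Complex V makes ATP through its F1 head and is anchored by its Fo part. Of 18 gene records, 13 (72.2%) were marked in young HSCs and 9 (50.0%) in aged HSCs. Of the 5 subunits of the F1 head, the catalytic subunit gene Atp5b at 4.46-fold and Atp5a1 were marked in young HSCs only, and Atp5c1, the central shaft, at both ages with 4.03-fold and 5.14-fold. The remaining F1 genes, Atp5d and Atp5e, were in neither list. The 5.14-fold of Atp5c1 was the highest aged value of the complex and belonged to a peak 298 bp upstream, over the 5′ end of the divergent gene Kin. In young HSCs the highest value was 4.46-fold, shared by Atp5b and Atp5f1, and the Atp5f1 summit lay 1274 bp from the nearest start. Of the genes for the c-ring, whose rotation drives the enzyme, Atp5g1 and Atp5g2 were marked at both ages and Atp5g3 in young HSCs only. Atp5l, a subunit of the membrane part, was marked in aged HSCs only, at 3.98-fold, with the nearest young peak 38537 bp away. Both gene records of Atp5o, the stalk subunit, were in neither list.

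**Figure D2:**
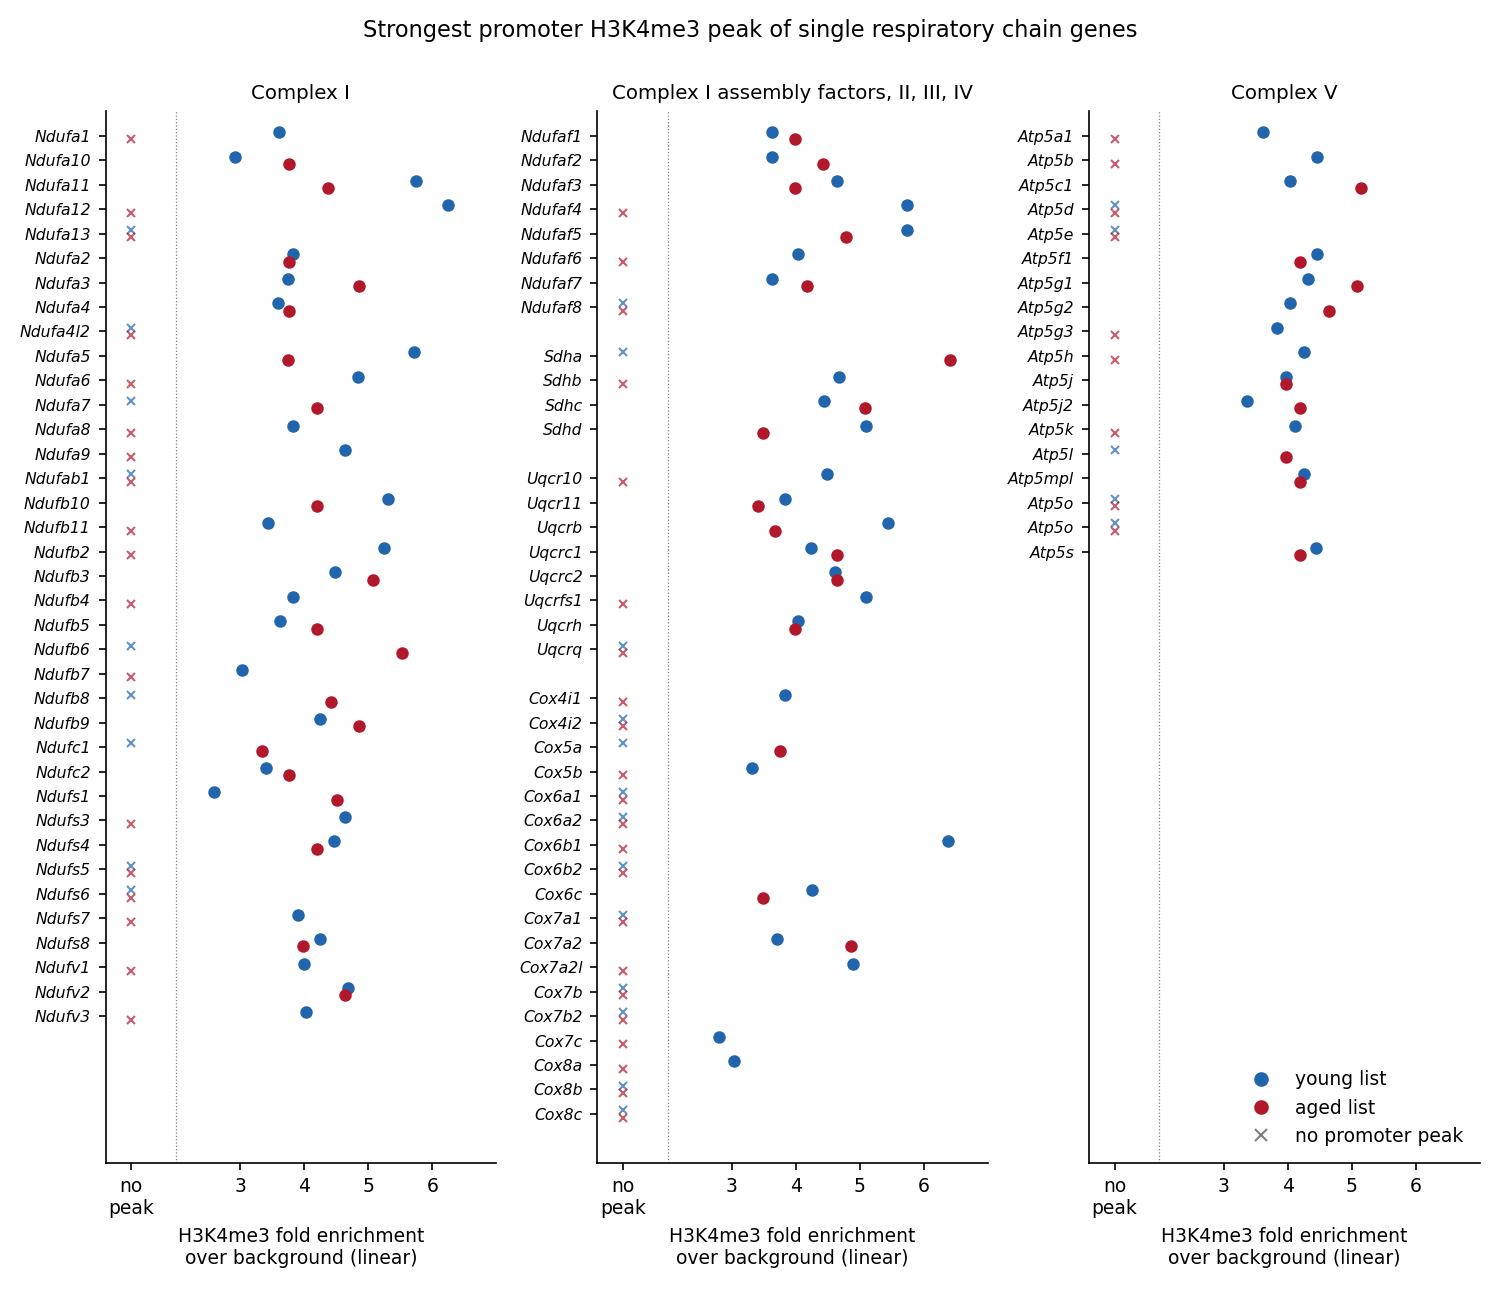
Linear H3K4me3 fold enrichment over background of the strongest promoter peak of 93 of the 94 gene records, grouped by complex, in the young list (blue circles) and the aged list (red circles). Crosses left of the dotted line stand for genes with no promoter peak. Marked genes lie between 2.59-fold and 6.38-fold in the young list and between 3.34-fold and 6.41-fold in the aged list.

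Where a respiratory chain promoter was marked, its enrichment was like that of other marked promoters. The median fold enrichment of the strongest promoter peak was 4.23 over the 67 young genes and 4.20 over the 45 aged genes, compared with 4.25 and 4.23 over all marked genes. The median number of reads at the summit, recovered from the fold and the p-value, was 21 in young and 19 in aged HSCs, the same as over all marked genes. Young-only members had a median of 4.04-fold (2.80 to 6.38) and members marked at both ages had 4.25-fold in young HSCs (2.59 to 5.74), so these ranges overlapped almost completely. Of the 29 young-only members, 18 (62.1%) remained among the strongest young peaks when the list was cut to the length of the aged list, as did 27 of the 38 members marked at both ages (71.1%). Over all genes these shares were 63.5% and 74.5%. Unmarked members were not near misses of the 1 kb window, because the nearest peak lay at least 2585 bp from a start in young HSCs (at Ndufs6) and at least 6045 bp in aged HSCs (at Atp5a1).

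The 38 genes marked at both ages showed no common shift in enrichment. The ratio of aged to young fold had a median of 1.00 and ran from 0.656 at Ndufa5 to 1.74 at Ndufs1, with 19 genes higher and 19 lower in aged HSCs before rounding. Ndufs1, the largest iron-sulfur subunit of complex I, was listed at 2.59-fold in young and 4.52-fold in aged HSCs, but the summits of these peaks were 1186 bp apart and the peaks did not overlap. The lowest ratios after Ndufa5 were those of Uqcrb (0.677) and Sdhd (0.682), where the young and aged peaks did overlap. The strongest peaks of the 2 ages overlapped at 28 of the 38 genes (73.7%), compared with 59.0% over all genes marked at both ages. The median distance between the summits was 153 bp, against 241 bp over all genes.

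The peaks stood beside the start sites and seldom on them. The summit of the strongest peak lay within 500 bp of a start at 80.6% of marked members in young HSCs and 93.3% in aged HSCs, compared with 69.8% and 72.3% of all marked genes. Within 100 bp of a start there were summits at 2 of 67 young members (2.99%) and 4 of 45 aged members (8.89%), against 9.35% and 10.3% of all marked genes. Of the 89 young and 58 aged peaks at member promoters, 9 (10.1%) and 5 (8.62%) covered the start nearest to their summit, compared with 15.8% and 15.1% of the peaks at all promoters. Summits were downstream of the start at 67.2% of young and 68.9% of aged members, and the median position was 192 bp downstream at both ages. The plot of summit positions shows most summits downstream of the start. Chromatin had been digested with micrococcal nuclease, which spares nucleosomes, and sonicated before and after this step. Whether this treatment bears on the summit positions was not tested.

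**Figure D3:**
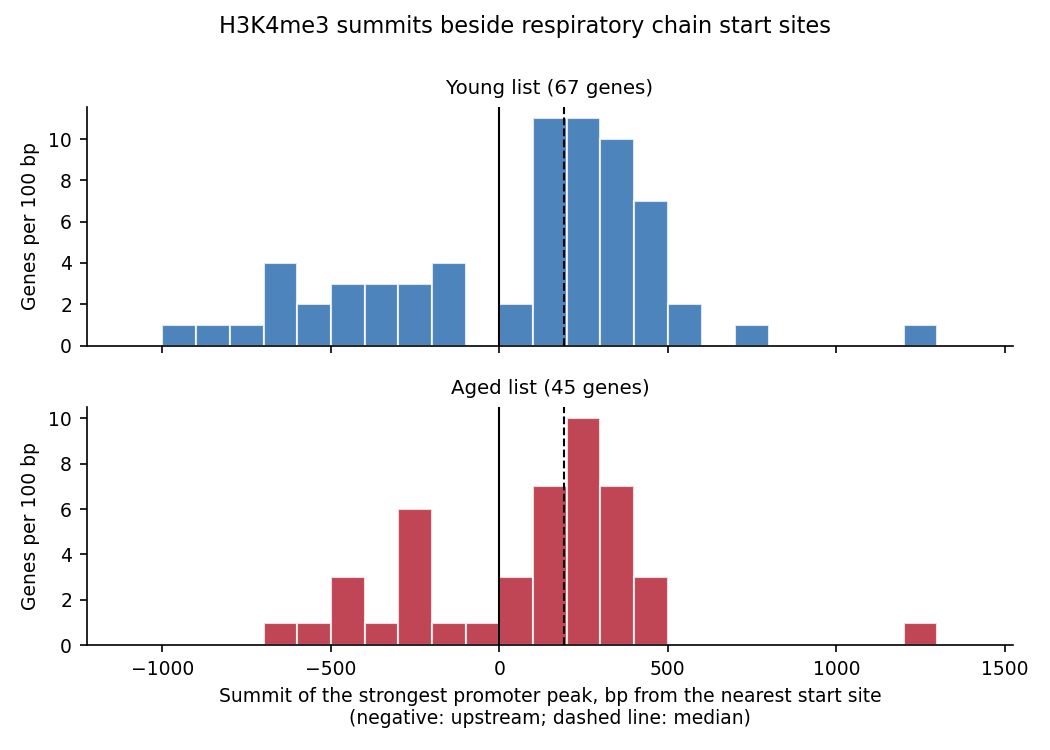
Number of respiratory chain genes per 100 bp by the position of the summit of their strongest promoter H3K4me3 peak relative to the nearest start site, in bp with negative values upstream, for 67 genes in the young list (top) and 45 in the aged list (bottom). The solid line is the start and the dashed line the median, 192 bp downstream at both ages, and the bins touching the start hold 2 of the 67 young and 4 of the 45 aged genes.

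Respiratory chain promoters were rich in CpG. A promoter was called CpG-rich when the 500 bp on either side of the 5′-most start had a GC content of at least 50% and an observed over expected CpG ratio of at least 0.6. This held for 70 of 94 members (74.5%) and for 46.0% of all genes. Among CpG-rich promoters, 78.6% of members (67.6 to 86.6) were marked in young HSCs and 50.0% (38.6 to 61.4) in aged HSCs, against 56.0% and 38.8% of all CpG-rich genes. The 24 members outside this class were marked in 12 cases (50.0%, 31.4 to 68.6) in young and 10 cases (41.7%, 24.5 to 61.2) in aged HSCs, against 14.9% and 10.1% of all such genes. With the 8 tissue-restricted isoforms left out, 12 of 16 (75.0%) and 10 of 16 (62.5%) of these promoters were marked. The higher share of marked members was therefore seen in both classes of promoter. All 10 members outside the class that were marked in aged HSCs were marked in young HSCs too. Some of them missed only the GC content, such as Uqcrb with a CpG ratio of 0.653, and the lowest ratio among them was 0.219 at Atp5j2. Of the 29 young-only members, 27 had CpG-rich promoters (93.1%, against 74.9% of all young-only genes), as did 28 of the 38 marked at both ages (73.7%, against 77.2%) and 7 of the 7 aged-only members.

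**Figure D4:**
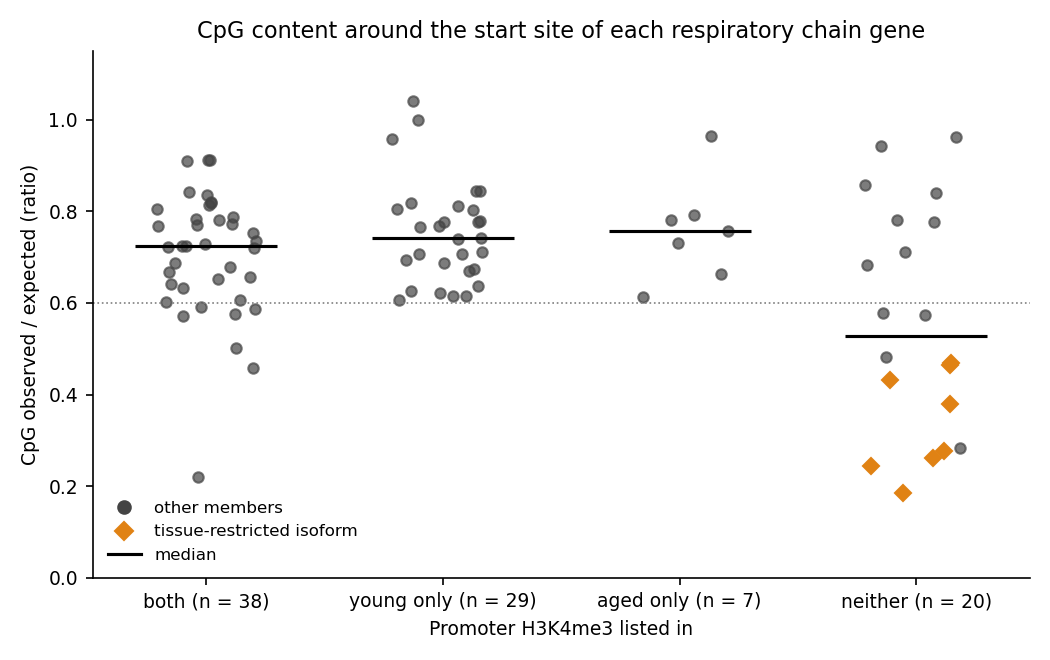
Observed over expected CpG ratio in the 500 bp on either side of the 5′-most start of each of the 94 gene records (vertical axis), by the lists in which its promoter H3K4me3 appears, with medians as lines and 0.6 dotted. The medians are 0.724 for both ages, 0.742 for young only, 0.756 for aged only and 0.528 for neither, and the 8 tissue-restricted isoforms (orange diamonds) all lie in the last group, at 0.468 or less.

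None of the 8 tissue-restricted isoforms carried H3K4me3 at either age, a count of 0 that allows a share of up to 37.5% by the limit of 3 counts (32.4% by Wilson). These are the muscle forms Cox6a2, Cox7a1 and Cox8b, the testis forms Cox6b2, Cox7b2 and Cox8c, Cox4i2, which is best known from lung, and Ndufa4l2. Their CpG ratios ran from 0.186 at Ndufa4l2 to 0.468 at Cox7b2 (median 0.328), and none had a CpG-rich promoter. Of all genes without a CpG-rich promoter, 14.9% were marked in young and 10.1% in aged HSCs. A difference of the isoforms from such genes was therefore not detectable. Of their 7 widely expressed partners, 5 were marked in young HSCs and 2 in aged HSCs, and 5 had CpG-rich promoters (median ratio 0.777). Among the partners, Cox7a2 and Ndufa4 were marked at both ages, with 3.60-fold in young and 3.76-fold in aged HSCs for Ndufa4. Cox4i1 at 3.83-fold, Cox6b1 at 6.38-fold and Cox8a at 3.03-fold were marked in young HSCs only. Cox6a1 and Cox7b were in neither list, although Cox6a1 had the CpG-dense sequence shown above, with a ratio of 0.962.

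Polycomb marks were all but missing from the respiratory chain. H3K27me3 was listed at 1 of 94 promoters in each age (1.06%, 0.188 to 5.78), against 16.0% (young) and 8.24% (aged) of all genes. No member carried H2AK119ub1 in the young list, which allows a share of up to 3.19% when a count of 0 is read as at most 3 (the Wilson limit is 3.93%), against 1.91% of all genes, so that a difference was not detectable. In the aged list H2AK119ub1 was at 3 members (3.19%, 1.09 to 8.97), against 14.0% of all genes. The aged H2AK119ub1 list is much the longer one, with 17768 regions against 2593 young regions. When it was cut to its 2593 widest regions, 0 members were marked, against 3.53% of all genes. For H3K27me3 the young list is the longer one, with 63142 regions against 20419 aged regions. Members with CpG-rich promoters had H3K27me3 in 0 of 70 cases at both ages, whereas it was at 17.1% (young) and 9.44% (aged) of all CpG-rich genes. Aged H2AK119ub1 was at 2 of these 70, against 19.3% of all CpG-rich genes. Low shares were not particular to the respiratory chain. H3K27me3 was at 0 of 78 mitochondrial and 0 of 84 cytosolic ribosomal protein genes at both ages. It was at 1 of 50 proteasome subunit genes in young HSCs and at 0 in aged HSCs. In the same order of sets, aged H2AK119ub1 was at 5.13%, 5.95% and 2.0%.

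The gene with H3K27me3 was Ndufa4l2 at both ages. In young HSCs a region of 3361 bp (chr10:127513245-127516605, 3.83-fold) spanned the start site, including the sequence shown above. In aged HSCs it was listed as separate regions of 778 bp upstream (3.03-fold) and 200 bp in coding sequence (3.04-fold), neither of which covered the start. The genes with aged H2AK119ub1 were Cox4i2, Cox5a and Ndufa1. Cox4i2 had regions of 200 bp (3.29-fold) and 250 bp (3.47-fold) and no H3K4me3. Cox5a had a region of 200 bp (3.48-fold, chr9:57521994-57522193) in an intron, next to the aged H3K4me3 peak that ended at position 57521985. Ndufa1, an X-linked subunit of complex I, had a region of 550 bp (3.04-fold) whose middle lay 914 bp upstream of its start. The young H3K4me3 peak counted for Ndufa1 had its summit 928 bp upstream, where the start of Rnf113a1 is also within reach. The −log10 q-values of these regions were at most 2.08 for H2AK119ub1 and 3.94 for H3K27me3. They were below the medians of the H3K4me3 lists, 4.65 in young and 4.16 in aged HSCs. Low values are general to the broad lists, whose medians were 1.72 for aged H2AK119ub1 and 1.96 (young) and 1.6 (aged) for H3K27me3.

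Members often lie beside another gene. A start site of another protein-coding gene was within 1 kb for 31 of the 94 (33.0%), compared with 11.8% of all genes. A peak in such a shared window cannot be assigned to either gene. Of these 31 members, 26 (83.9%) were marked in young and 20 (64.5%) in aged HSCs, against 65.7% and 47.9% of all genes with such a neighbour. Of the 63 members without one, 41 (65.1%, 52.8 to 75.7) and 25 (39.7%, 28.5 to 52.0) were marked, against 29.5% and 20.0% of all such genes. Some neighbours serve mitochondria themselves: Atp5j shares its window with Gabpa, which encodes a factor that binds ETS motifs, and Ndufb5 and Ndufs6 share theirs with the mitochondrial ribosomal protein genes Mrpl47 and Mrpl36. Of the 3 members on the X chromosome, Ndufa1 and Ndufb11 were marked in young HSCs only and Cox7b in neither list. Of all X-linked genes 6.75% were marked in young and 2.95% in aged HSCs, and both marked members had a summit at 928 bp and 805 bp upstream and a neighbouring start.

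Shares of marked members were close with and without the main motifs. Of the 31 members with an NRF1 or an ETS motif, 71.0% (53.4 to 83.9) were marked in young and 48.4% (32.0 to 65.2) in aged HSCs. Of the 63 members without either, 71.4% (59.3 to 81.1) and 47.6% (35.8 to 59.7) were marked. Over all genes, the shares were 58.3% and 40.8% with such a motif and 28.4% and 19.4% without.

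Further genes act on the same complexes but lie outside the naming rule. Of 39 further assembly factors, 32 (82.1%, 67.3 to 91.0) were marked in young and 21 (53.8%, 38.6 to 68.4) in aged HSCs. Over all genes these shares were 33.8% and 23.3%. Of the 39, 13 were marked in young HSCs only, against 16.3% of all genes. Among these 13 were the assembly factors of ATP synthase in this list, Atpaf1, Atpaf2 and Tmem70. Of these 39, Sdhaf1, an assembly factor of complex II, alone carried a Polycomb mark, aged H2AK119ub1 at 2.99-fold. Of 18 regulators of mitochondrial biogenesis, 11 (61.1%) were marked in young and 10 (55.6%) in aged HSCs, against 33.8% and 23.3% of all genes. In the aged list only were 3 of these regulators (5.78% of all genes were), and in the young list only were 4 (16.3% of all genes). The aged-only genes were Ppargc1a and Ppargc1b, coactivators of mitochondrial genes, and Gabpb1, the partner of Gabpa. Their values were 3.83-fold, 4.20-fold and 4.42-fold. The young-only genes were Esrra, Tfam, Polg and Ssbp1. Aged H2AK119ub1 was listed at 3 of these 18 (16.7%, 5.84 to 39.2, against 14.0% of all genes), namely Ppargc1b (3.32-fold), Esrra (2.98-fold) and Polrmt (3.29-fold), the last of which encodes the RNA polymerase of mitochondria. Of 17 citric acid cycle genes, 8 (47.1%) carried H3K4me3 in young and 7 (41.2%) in aged HSCs, against the same 33.8% and 23.3%. Among them Idh3a alone carried aged H2AK119ub1, at 3.34-fold. Of 24 gene records for glycolysis, 15 (62.5%) and 12 (50.0%) carried H3K4me3, again against 33.8% and 23.3% of all genes. Pgk1 alone (4.17%, against 16.0% of all genes) carried young H3K27me3, at 2.70-fold. Aged H2AK119ub1 was at 3 of the 24 (12.5%), Aldoa (3.26-fold), Eno3 (3.09-fold) and Slc2a3 (2.87-fold). The shares of aged H2AK119ub1 in the glycolysis genes (12.5%) and the regulators of biogenesis (16.7%) were close to the 14.0% of all genes.

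Promoters of cell type markers were read as a description only. Of 8 HSC marker genes, 5 carried H3K4me3 at 10 weeks and 5 at 20 months, against 33.8% and 23.3% of all genes. Procr, Mecom, Hlf and Meis1 were listed at both ages. Kit was listed in aged HSCs only, Gata2 in young HSCs only, and Ly6a and Slamf1 in neither. None of the 6 markers of T cells, B cells, granulocytes and macrophages was listed at either age, but 60.4% of all genes were in neither list. So few genes cannot settle the identity of the cells. Both of the 2 erythroid markers were listed in young HSCs, with Epor at 4.25-fold, and neither was listed in aged HSCs. The part of other cells in the values above was not tested.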

How the data were processed

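ChIP-seq reads from 16 libraries, of which 4 were inputs, were aligned to mm10 by the authors. Bowtie2 and MACS2 2.2.6 are named in the submitters' processing notes. The threshold of the peak caller is not given in the sources used here. The deposited lists give each peak's fold enrichment as a linear ratio and the −log10 of its p-value and q-value. H3K4me3 lists are narrow peaks. H3K27me3 and H2AK119ub1 lists are broad regions whose values are averages, and their peak names carry a single library number, so whether both replicates were pooled is not known. Promoters were the 1 kb on either side of protein-coding start sites of the GENCODE M21 basic set, on chromosomes 1 to 19, X and Y. The scripts used Python 3.11.15, scipy 1.17.1, pandas 2.3.3 and numpy 2.4.6, with matplotlib 3.10.9 for plots. The overlap code was tested on simulated data. Peak lists do not state read depth. Summit reads followed from fold and p-value, with a whole number for 100% of H3K4me3 peaks (tolerance 0.001 in −log10 p). Alternatives changed the q-value, list length, window, start sites, overlap and members. The members and lists were chosen with earlier results of these data known. Genes were named with values when they carried a Polycomb mark, carried H3K4me3 in the aged list only, had the highest fold of their complex, or were Sdh genes or members of isoform pairs. A few others are named for their role or as an extreme of a range, chosen after their values were seen. Not analysed here were single replicates and protein sequences. The values of 1 member and 1 marker gene are not reported here by name, and the member is left out of the plot of single genes.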

Additional observations from a re-analysis of the deposited data

How the results depend on the processing

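No paired analysis was possible because only pooled lists were used. In all, 62 alternative values stayed within the counting interval or 1.5 times of the main one, and 12 moved. With a minimum −log10 q-value of 4, H3K4me3 was at 50% of members in young and 34% in aged HSCs and at 22.3% at both ages (24.8%, 15.7% and 9.84% of all genes), while the ratio of aged to young H3K4me3 genes was 0.681 (0.635 over all genes). H3K27me3 was then at 0 members at both ages and aged H2AK119ub1 at 0, but these marks were left at 2.18%, 0.0412% and 0.188% of all genes, so the 0 says nothing about the members. With equal numbers of peaks, H3K4me3 was at 47.9% in young HSCs and 28.7% at both ages (23.4% and 13.0% of all genes) and the ratio became 1, which follows from the shorter young list, and aged H2AK119ub1 was at 0 (3.53% of all genes). With 500 bp windows aged H2AK119ub1 was at 1.06% (8.91% of all genes). H3K27me3 was at 0 at both ages among the 77 subunits of the assembled complexes, since Ndufa4l2 was left out. Start sites of the full GENCODE set, an alternative chosen after seeing the data, left the H3K4me3 counts at 67 and 45, and listed H3K27me3 at 3 aged members and H2AK119ub1 at 4. Whether these start sites are used in HSCs was not tested. Pileups of about 20 reads at a summit and single pooled lists limit any statement on 1 gene.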
